A study of Rattus norvegicus with 6 samples.

Results

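Complement and coagulation proteins of the blood are made for the most part by the liver, and 43 of their genes were followed in rat pups whose mothers ate different diets. The set holds 21 complement genes and 22 genes of coagulation, its inhibitors and fibrinolysis, matched by gene symbol to the probe sets of an Affymetrix array, where a probe set is a group of short probes for 1 transcript. Of the 43, 35 had a probe set of their own, 18 in complement and 17 in coagulation, out of 14217 genes measured. C2, C4a, Cfb and Kng1 lay on probe sets shared with another gene, and F7, F11, F13b and Proz were not found by symbol, so these 8 are given no value. Each gene is described by its probe set with the highest mean over all 6 arrays.

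Liver was taken from Sprague-Dawley pups at 3 weeks of age, the time of weaning. In the control group, 3 pups came from dams on standard chow, and in the high fat group 3 came from dams on a high fat diet, with 1 array for each pup. The question is what a fatty maternal diet goes along with in the liver of the young. The labels name neither dams nor litters nor what the pups themselves ate, so a p-value here reflects only the spread among these samples, some of which may be littermates. Liver was measured as bulk tissue, in which fewer cells of a type and less RNA per cell cannot be told apart.

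Complement is a cascade of proteases and binding proteins that marks microbes for removal. Lectins or antibody start it, C3 is its central component, and C5 to C9 form the pore of the membrane attack complex, while soluble inhibitors hold it in check. Coagulation is a parallel protease cascade that ends when thrombin turns fibrinogen into fibrin, and antithrombin, protein C with protein S, and tissue factor pathway inhibitor limit it. Hepatocytes secrete most of these proteins, and many of the genes respond to interleukin 6 and interleukin 1 in the acute phase response.

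The bases just upstream of 6 members are shown as background, and no expression value below was set against them. Fga, Fgb and Fgg encode the 3 chains of fibrinogen and lie next to each other in the genome, C3 is the hub of complement, C4bpb had the largest complement difference between the diets, and C8a was 1 of 2 complement genes whose groups did not overlap. Sequences are from RefSeq on the GRCr8 build, on the strand of the gene and cut to lie outside the annotated gene. They cover chr2:170671919-170672168 (+) for Fga, chr2:170700876-170701125 (-) for Fgb, chr2:170652833-170652928 (+) for Fgg, chr9:2201340-2201589 (-) for C3, chr13:44683782-44684031 (-) for C4bpb and chr5:124866632-124866881 (-) for C8a. Capitals mark matches, on either strand, to 3 short motifs. The first is GTTAAT, a part of the site of the hepatocyte factor HNF1. The second is TTNNGCAA, a C/EBP type site in which N is any base. The third is CTGGGAA, the core of an interleukin 6 response element of acute phase genes. A match to the other strand reads as the reverse complement, and no capital belongs to more than 1 motif.
Fga: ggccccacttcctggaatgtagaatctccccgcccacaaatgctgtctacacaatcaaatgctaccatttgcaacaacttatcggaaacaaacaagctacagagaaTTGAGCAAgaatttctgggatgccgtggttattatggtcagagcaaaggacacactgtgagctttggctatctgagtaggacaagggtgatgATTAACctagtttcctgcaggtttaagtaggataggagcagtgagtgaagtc
Fgb: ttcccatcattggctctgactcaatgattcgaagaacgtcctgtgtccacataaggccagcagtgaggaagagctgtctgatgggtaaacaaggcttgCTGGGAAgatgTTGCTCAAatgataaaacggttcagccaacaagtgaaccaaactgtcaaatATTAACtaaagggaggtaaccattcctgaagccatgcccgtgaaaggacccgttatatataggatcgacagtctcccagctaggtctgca
Fgg: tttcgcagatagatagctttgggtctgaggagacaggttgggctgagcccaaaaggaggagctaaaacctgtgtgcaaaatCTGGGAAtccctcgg
C3: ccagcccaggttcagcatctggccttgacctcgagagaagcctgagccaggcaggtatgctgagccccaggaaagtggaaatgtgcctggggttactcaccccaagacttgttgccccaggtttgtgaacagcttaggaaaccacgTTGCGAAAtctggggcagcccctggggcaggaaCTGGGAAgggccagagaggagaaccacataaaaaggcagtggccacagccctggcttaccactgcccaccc
C4bpb: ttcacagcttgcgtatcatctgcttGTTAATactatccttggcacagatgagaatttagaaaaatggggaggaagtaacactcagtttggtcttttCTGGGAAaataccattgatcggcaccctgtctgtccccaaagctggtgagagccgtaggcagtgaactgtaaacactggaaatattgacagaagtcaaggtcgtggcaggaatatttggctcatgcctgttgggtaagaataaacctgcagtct
C8a: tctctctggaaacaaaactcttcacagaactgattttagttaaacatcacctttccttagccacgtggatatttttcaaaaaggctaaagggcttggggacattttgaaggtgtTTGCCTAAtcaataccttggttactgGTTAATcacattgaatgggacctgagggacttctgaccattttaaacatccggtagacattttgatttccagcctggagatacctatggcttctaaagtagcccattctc

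Fgb carried all 3 motifs, Fga and C8a the HNF1 and C/EBP motifs, C3 the C/EBP and interleukin 6 motifs, and C4bpb the HNF1 and interleukin 6 motifs. In C3 the interleukin 6 motif began 71 bases and the C/EBP motif 104 bases before the start, and in Fgb the interleukin 6 motif began 152 and the C/EBP motif 141 bases before it. The start of Fgg in the table lies inside the annotated gene, so only 96 bases are shown, with an interleukin 6 motif that begins 169 bases before that start. RefSeq promoters were found for 34 of the 43 members, and the 250 bases before each start were searched, as they were for all 27457 promoters. These windows were searched uncut, so some matches lie inside the annotated gene. They include the HNF1 motifs of C4bpa and Proc and the C/EBP motifs of C8b and Klkb1. The interleukin 6 motif of Tfpi and a further Fgg motif, which begins 61 bases before the start, are also such matches. GTTAAT was present in 4 of 14 complement promoters (28.6%) and 6 of 20 coagulation promoters (30.0%), against 6.49% of all. TTNNGCAA was present in 6 of 14 (42.9%) and 7 of 20 (35.0%), against 9.21% of all, and CTGGGAA in 4 of 14 (28.6%) and 7 of 20 (35.0%), against 9.32%. A match describes letters in a window and is not by itself a binding site.

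All 7 hepatocyte markers measured were above the brightness limit on these arrays. High fat replicate 1 carried transcripts of the exocrine pancreas, with a summed log2 signal of 15.72 over 10 markers against 10.83 to 12.01 on the other arrays. High fat replicate 3 differed from the other 5 arrays in sex-linked transcripts, with Xist at 4.45 against 12.46 to 13.31 and the Y-linked Eif2s3y at 11.14 against 0 to 3.99. The labels give no sex, but by these transcripts that pup reads as male and the other 5 as female. The controls hold no such pup, so the diet groups differ in this as well. Control replicate 3 had the largest gap between 3' and 5' probe sets of the actin and GAPDH controls, 3.09 log2 units against 1.96 to 2.49, a gap that widens as RNA degrades. Where a member's change of at least 0.1 in size moved by over 1.5 times when a single array was left out, the value without it is given.

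No complement member passed the test in pups of high fat dams. Over the 18 genes, the median log2 change, high fat minus control, was -0.12, with 5 genes higher and 13 lower and single changes from -0.39 to 0.20. The test was limma's moderated linear model, with Benjamini-Hochberg adjustment over 10372 genes. Across all of those, 4 genes (0.0386%) passed an adjusted p of 0.05. The median change of all genes was -0.02, with 46.9% of them higher and 53.1% lower.

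**Figure D1:**
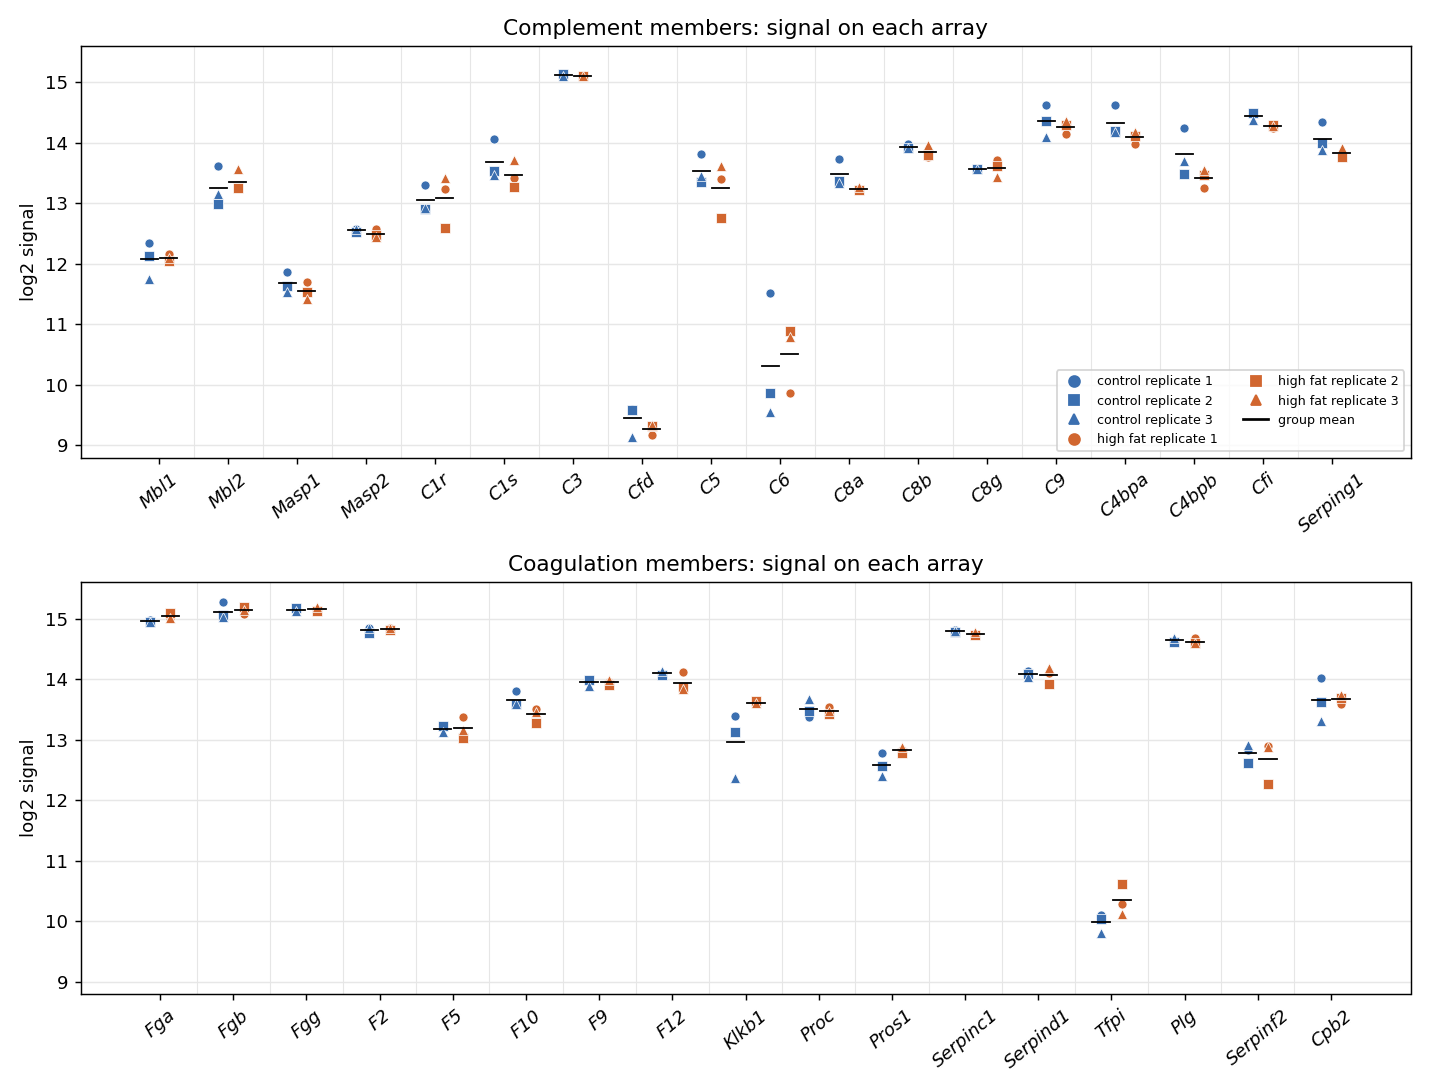
Normalized log2 signal (vertical axis) of 18 complement genes (top) and 17 coagulation genes (bottom) on each of 6 arrays. Each gene has control pups in blue at the left and pups of high fat dams in orange at the right, point shapes give the replicate number and black lines the group means. Values of C3 lay between 15.10 and 15.14 on all arrays, those of C6 between 9.56 and 11.52, and heights of different genes are not comparable because each has its own probes.

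Of the genes that start complement, 6 had values, 3 higher and 3 lower in the high fat group, with a median change of -0.02 that ran from -0.10 (without control replicate 3) to 0.06 (without control replicate 1) with 1 array left out. Mbl1 and Mbl2 encode mannose-binding lectins, which bind sugars on microbes. Mbl1 read 12.35, 12.13 and 11.75 in control replicates 1 to 3 and 12.16, 12.04 and 12.09 in the high fat pups. The high fat values lay inside the control range, with a change of 0.02 (SE 0.18, limma adjusted p = 0.976). Mbl2 read 13.61, 12.99 and 13.16 in controls and 13.25, 13.26 and 13.56 in high fat pups, a change of 0.10 (SE 0.20, limma adjusted p = 0.857). Here too the groups overlapped, with the highest control above every high fat value. The change was 0.28 without control replicate 1, -0.03 without control replicate 2, 0.06 without control replicate 3, 0.15 without high fat replicate 1, and 0.00 when replicate 3 of that group was left out.

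Masp1 and Masp2 encode the serine proteases that act with those lectins. Masp1 read 11.87, 11.63 and 11.54 in controls and 11.70, 11.53 and 11.42 in high fat pups, and its change was -0.13 (SE 0.15, limma adjusted p = 0.727). It was -0.04 without control replicate 1, -0.20 without control replicate 3, -0.21 without high fat replicate 1, and -0.07 when replicate 3 of that group was left out. Masp2 stayed between 12.44 and 12.58 on all 6 arrays (change -0.06, SE 0.12, limma adjusted p = 0.867). Its 95% interval ran from -0.34 to 0.22, inside a 1.5-fold change in either direction, which is 0.58 log2 units.

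C1r and C1s encode the proteases of the C1 complex and are neighbours in the genome. C1r read 13.31, 12.91 and 12.93 in controls and 13.23, 12.59 and 13.42 in high fat pups, so that both the lowest and the highest value came from the high fat group. Its change was 0.03 with a wide interval, from -0.55 to 0.61 (SE 0.24, limma adjusted p = 0.967). C1s read 14.07, 13.54 and 13.46 in controls and 13.42, 13.27 and 13.71 in high fat pups, a change of -0.22 (SE 0.21, limma adjusted p = 0.677). It was -0.03 without control replicate 1, -0.34 without control replicate 3 or high fat replicate 3. Without high fat replicate 2 it was -0.12.

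C3, whose cleavage is the step on which all routes of complement meet, varied little over the 6 arrays after normalization. It read 15.11, 15.14 and 15.11 in controls (15.12 ± 0.022, SD, n = 3) and 15.11, 15.10 and 15.10 in high fat pups (15.10 ± 0.005, SD, n = 3). The change was -0.02 with a 95% interval from -0.29 to 0.25 (limma adjusted p = 0.957). In the values as deposited, before quantile normalization, C3 read 15.17, 15.25 and 15.18 in controls and 15.00, 14.85 and 15.20 in high fat pups, a difference of -0.18 and a wider range than that of Masp2 or C8g as deposited. Quantile normalization gives the brightest probe sets of every array the same values. Cfd, or adipsin, is the protease of the alternative pathway that cleaves factor B. It read 9.61, 9.59 and 9.14 in controls and 9.17, 9.32 and 9.33 in high fat pups (change -0.17, SE 0.17, limma adjusted p = 0.685). The change was -0.09 without control replicate 1, -0.10 without control replicate 2 and -0.33 without control replicate 3.

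Among the 6 terminal components 2 were higher and 4 lower, with a median change of -0.10. That median was -0.02 without control replicate 1, -0.20 without control replicate 3, -0.15 without high fat replicate 3, and -0.05 when replicate 1 or 2 of that group was left out. C5 releases the attractant C5a and begins the membrane attack complex. It read 13.82, 13.35 and 13.45 in controls and 13.40, 12.76 and 13.62 in high fat pups, the lowest of all in high fat replicate 2 (change -0.28, SE 0.25, limma adjusted p = 0.663). The change was -0.02 without that array, -0.14 without control replicate 1 and -0.46 without high fat replicate 3. C6, the component that binds C5b, varied most among the complement genes. It read 11.52, 9.86 and 9.56 in controls (10.31 ± 1.05, SD, n = 3) and 9.86, 10.89 and 10.79 in high fat pups (10.51 ± 0.57, SD, n = 3). Values of both groups interleaved, and the interval of the change of 0.20 ran from -1.08 to 1.47 (limma adjusted p = 0.903), so that more than a doubling in either direction could not be told from no change. Leaving out 1 array moved that change to between -0.18 (control replicate 3) and 0.80 (control replicate 1).

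C8 is built of an alpha, a beta and a gamma chain from 3 genes. C8a read 13.74, 13.37 and 13.34 in controls (13.48 ± 0.23, SD, n = 3) and 13.24, 13.22 and 13.27 in high fat pups (13.24 ± 0.025, SD, n = 3). Every high fat value lay below every control, by a change of -0.24 (SE 0.15, 95% interval -0.60 to 0.11, limma adjusted p = 0.520). Without control replicate 1 that change was -0.11. C8b, its neighbour in the genome, read 13.98, 13.91 and 13.91 in controls and 13.77, 13.80 and 13.96 in high fat pups (change -0.09, SE 0.12, limma adjusted p = 0.777). C8g, which lies elsewhere and belongs to the lipocalin family, read 13.57, 13.56 and 13.57 in controls and 13.71, 13.61 and 13.43 in high fat pups, on both sides of the controls (change 0.02, SE 0.13, limma adjusted p = 0.960). C9, which polymerises into the pore, read 14.63, 14.36 and 14.10 in controls and 14.14, 14.30 and 14.36 in high fat pups (change -0.10, SE 0.17, limma adjusted p = 0.832).

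All 4 complement inhibitors measured were lower in the high fat group, with a median change of -0.24, and none passed the test. C4bpa and C4bpb encode the chains of C4b-binding protein, which helps to break down C4b, and its beta chain also binds protein S of the coagulation system. C4bpb had the largest difference of the 18 complement genes. It read 14.25, 13.49 and 13.70 in controls (13.81 ± 0.39, SD, n = 3) and 13.26, 13.46 and 13.55 in high fat pups (13.43 ± 0.15, SD, n = 3). The groups overlapped, and the change of -0.39 was 1.31-fold (SE 0.22, 95% interval -0.90 to 0.13, limma adjusted p = 0.481). Without control replicate 1 it was -0.17.

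C4bpa read 14.62, 14.20 and 14.17 in controls and 13.98, 14.12 and 14.17 in high fat pups, which touched the controls at 14.17 (change -0.24, SE 0.16, limma adjusted p = 0.560, and -0.10 without control replicate 1). Cfi, factor I, cuts C3b and C4b with the help of cofactors. It read 14.47, 14.49 and 14.38 in controls (14.45 ± 0.057, SD, n = 3) and 14.24, 14.29 and 14.28 in high fat pups (14.27 ± 0.025, SD, n = 3). The groups did not overlap, yet the change of -0.18 missed the threshold (SE 0.12, 95% interval -0.45 to 0.10, limma adjusted p = 0.544). Its values without control replicate 1 (-0.16) and without high fat replicate 3 (-0.18) were close to that. Serping1, the C1 inhibitor, which also blocks plasma kallikrein and factor XII, read 14.34, 13.99 and 13.88 in controls and 13.80, 13.77 and 13.92 in high fat pups (change -0.24, SE 0.16, limma adjusted p = 0.556, and -0.10 without control replicate 1).

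**Figure D2:**
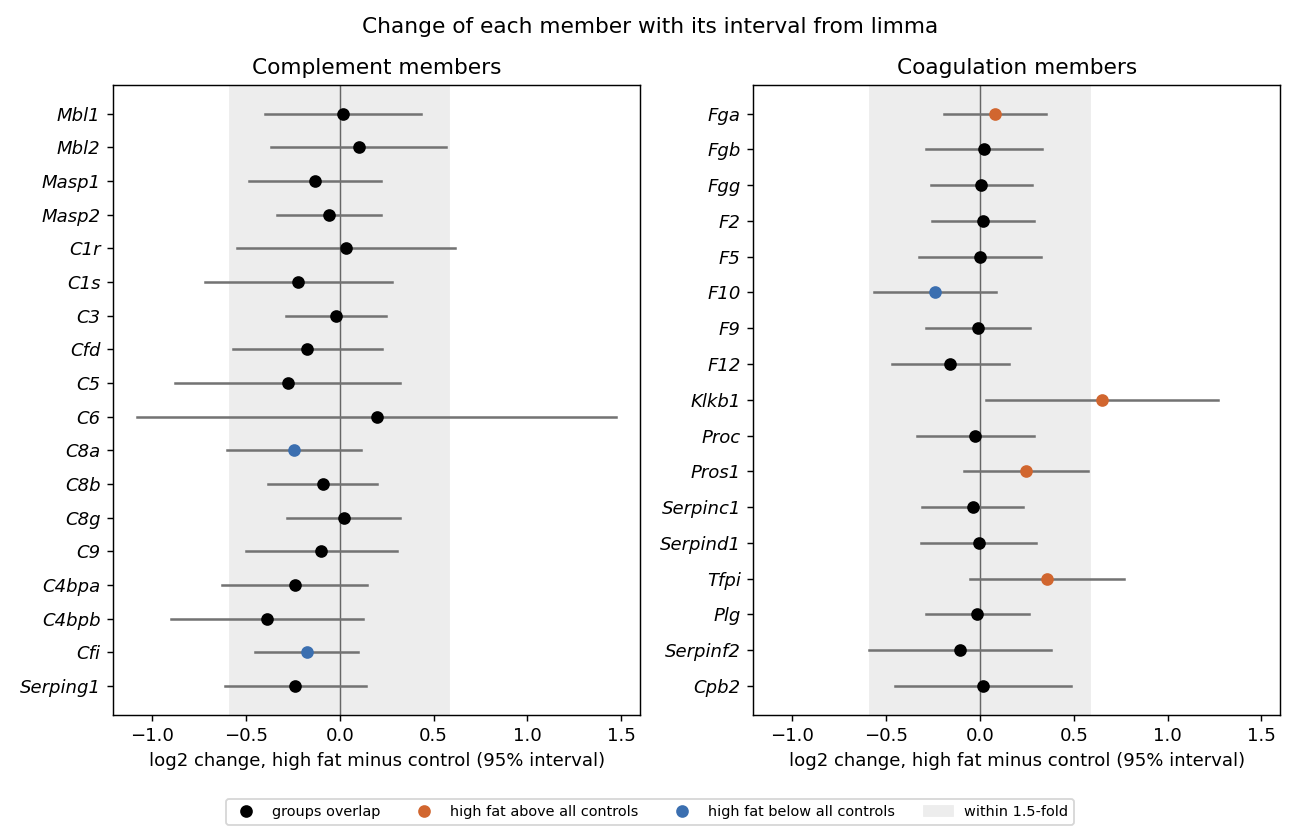
The log2 change, high fat minus control, of each member (points) with its 95% interval from limma (lines), for complement at the left and coagulation at the right. The grey band marks changes smaller than 1.5-fold in either direction, and colours mark genes whose groups did not overlap. Klkb1, at 0.65, is the single member whose interval leaves out 0, and C6 has the widest interval, from -1.08 to 1.47.

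No coagulation member passed the adjusted threshold either. Of 17 genes, 9 were higher and 8 lower in pups of high fat dams, with a median log2 change of 0.00 and single changes from -0.24 to 0.65. For 14 of the 17 the 95% interval lay within 1.5-fold in both directions, a share of 82.4%. That held for 10 of 18 complement genes (55.6%) and for 41.3% of all genes tested. These shares are not matched for brightness, and quantile normalization brings the values of the brightest genes closer together. Serpinc1, for example, ran from 14.72 to 14.81 after it and from 14.53 to 14.90 as deposited. The median level was 13.95 in coagulation, 13.49 in complement and 9.07 over all genes. Klkb1, plasma prekallikrein, was the only member past a looser call of an unadjusted p under 0.05 with at least 1.5-fold, which 6.71% of all genes passed, 3.34% with high fat higher.

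The fibrinogen chains differed little between the groups on their brightest probe sets. Fga read 14.98, 14.95 and 14.94 in controls (14.96 ± 0.018, SD, n = 3) and 15.01, 15.09 and 15.01 in high fat pups (15.04 ± 0.042, SD, n = 3). Each high fat value was above each control, but the change was 0.08, with a 95% interval from -0.19 to 0.35 (limma adjusted p = 0.793). Fgb read 15.27, 15.05 and 15.02 in controls and 15.08, 15.19 and 15.14 in high fat pups (change 0.02, SE 0.13, limma adjusted p = 0.959). Fgg read 15.14, 15.17 and 15.12 in controls and 15.14, 15.12 and 15.19 in high fat pups (change 0.01, SE 0.11, limma adjusted p = 0.985). All 3 intervals lay within 1.5-fold, yet the direction of each turned in the values as deposited, to -0.07 for Fga, -0.15 for Fgb and -0.15 for Fgg. As deposited, Fgb ran from 14.92 to 15.33 and Fgg from 14.87 to 15.27 over the 6 arrays.

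Prothrombin, factor V and factor X form the common pathway that yields thrombin. F2, or prothrombin, stayed between 14.76 and 14.85 on all arrays (change 0.02, SE 0.11, limma adjusted p = 0.964, and -0.13 as deposited). F5, the cofactor of factor X, read 13.20, 13.22 and 13.12 in controls and 13.37, 13.03 and 13.15 in high fat pups, so that the high fat values spanned the controls (change 0.00, SE 0.14, limma adjusted p = 1.00). F10, which cleaves prothrombin, stood lower in every high fat pup. It read 13.80, 13.59 and 13.58 in controls (13.66 ± 0.13, SD, n = 3) and 13.51, 13.28 and 13.46 in high fat pups (13.42 ± 0.12, SD, n = 3). That change of -0.24 was 1.18-fold and missed the threshold (SE 0.14, 95% interval -0.56 to 0.085, limma adjusted p = 0.486). It was -0.17 without control replicate 1.

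F9, the factor lacking in haemophilia B and the single upstream factor with a value here, lay between 13.89 and 13.99 on all arrays (change -0.01, SE 0.12, limma adjusted p = 0.979).

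The contact system starts clotting on charged surfaces and releases bradykinin, and its 2 members with values differed in sign. Klkb1 encodes plasma prekallikrein, the protease that frees bradykinin from kininogen and activates factor XII. It read 13.39, 13.13 and 12.37 in controls (12.96 ± 0.53, SD, n = 3) and 13.60, 13.63 and 13.60 in high fat pups (13.61 ± 0.019, SD, n = 3). The high fat values lay close together above all controls, while the controls spread over about a log2 unit with replicate 3 the lowest. The change of 0.65 was 1.57-fold (SE 0.26, 95% interval 0.032 to 1.27, unadjusted p = 0.0418 in limma) and did not hold after adjustment (limma adjusted p = 0.342).

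Control replicate 3, the lowest for Klkb1, is also the array with the largest 3' to 5' gap. Without that array the change was 0.35 (unadjusted p = 0.0555 in limma). With the 3' to 5' gap as a covariate it was 0.37 (unadjusted p = 0.0912 in limma). That gap was 3.09 on control replicate 3 and 1.96 to 2.49 on the others. The covariate therefore largely marks the same array and is not a separate check. Whether RNA quality bears on the Klkb1 value was not tested. The looser call was also lost without control replicate 2 (change 0.73), or without high fat replicate 1 (0.66), 2 (0.64) or 3 (0.66). Unadjusted p in limma then ran from 0.0549 to 0.0891. It was kept without control replicate 1 (0.87, unadjusted p = 0.0123 in limma). F12, the factor that prekallikrein activates, read 14.09, 14.07 and 14.14 in controls and 14.11, 13.87 and 13.84 in high fat pups, with high fat replicate 1 at the level of the controls (change -0.16, SE 0.13, limma adjusted p = 0.636, and -0.24 without that array).

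Of 5 anticoagulants, 2 had all high fat values above the controls, as did 9.24% of all genes, and 3 had groups that overlapped. In the values as deposited, those 2, Tfpi and Pros1, overlapped as well. There Tfpi read 10.10 in high fat replicate 3 against 10.11 in control replicate 1. Pros1 read 12.79 and 12.72 in high fat replicates 1 and 2 against 12.80 in control replicate 1. Tfpi, the inhibitor of the tissue factor pathway, which endothelium makes as well as liver, read 10.11, 10.04 and 9.81 in controls (9.99 ± 0.15, SD, n = 3). It read 10.29, 10.62 and 10.12 in high fat pups (10.34 ± 0.26, SD, n = 3), with high fat replicate 2 the highest and replicate 3 just above the controls. The change of 0.36 was 1.28-fold (SE 0.17, 95% interval -0.056 to 0.77, limma adjusted p = 0.418), and without high fat replicate 2 it was 0.22. A second, dimmer Tfpi probe set went the other way (-0.22). Pros1, protein S, the cofactor of protein C, read 12.77, 12.57 and 12.40 in controls (12.58 ± 0.18, SD, n = 3) and 12.82, 12.78 and 12.88 in high fat pups (12.83 ± 0.050, SD, n = 3). That change was 0.25 (SE 0.14, 95% interval -0.087 to 0.58, limma adjusted p = 0.486), and 0.16 without control replicate 3, its lowest array.

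Proc, protein C, which degrades activated factors V and VIII, read 13.38, 13.48 and 13.67 in controls and 13.54, 13.42 and 13.48 in high fat pups (change -0.03, SE 0.13, limma adjusted p = 0.948). Serpinc1, antithrombin, lay between 14.72 and 14.81 on all arrays, and its interval from -0.31 to 0.23 was among the narrowest (change -0.04, limma adjusted p = 0.911). Serpind1, heparin cofactor II, read 14.13, 14.08 and 14.03 in controls and 14.10, 13.92 and 14.18 in high fat pups (change -0.01, SE 0.13, limma adjusted p = 0.985).

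Fibrinolysis dissolves the clot through plasmin. Plg, its precursor plasminogen, lay between 14.59 and 14.68 on all arrays (change -0.01, SE 0.12, limma adjusted p = 0.968). Serpinf2, the inhibitor of plasmin, read 12.83, 12.61 and 12.91 in controls and 12.89, 12.26 and 12.87 in high fat pups, of which replicate 2 alone lay below the controls (change -0.11, SE 0.20, limma adjusted p = 0.849). Without that array the change was 0.10, and over the other arrays left out in turn it ran from -0.22 (high fat replicate 1) to -0.04 (control replicate 3). Cpb2, a carboxypeptidase that slows fibrin breakdown, read 14.02, 13.62 and 13.30 in controls and 13.59, 13.68 and 13.73 in high fat pups, inside the control range (change 0.02, SE 0.20, limma adjusted p = 0.979).

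Counted over the 35 genes, 7 had groups that did not overlap, which is 20.0% against 20.8% of all genes tested. Complement had 2, C8a and Cfi, both lower (11.1% of 18). Coagulation had 5 (29.4% of 17), with Fga, Klkb1, Pros1 and Tfpi higher and F10 lower. These counts hold for the normalized values. In the values as deposited the groups of Fga, Pros1 and Tfpi overlapped and those of C8a met at 13.32. Klkb1, F10 and Cfi stayed apart there, and Masp2 and F12 parted with high fat lower. Across all genes 9.24% did not overlap with high fat higher and 11.5% with high fat lower. The smallest adjusted p of any member was 0.342, for Klkb1 (limma). Standard errors of the members had a median of 0.14 against 0.18 over all genes, which were not matched for brightness. Of the members, 31 were among the 1000 brightest of 14217 genes.

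Single arrays stood apart in complement. Control replicate 1 held the highest of the 6 values in 14 of 18 complement genes (77.8%), in 5 of 17 coagulation genes (29.4%) and in 18.7% of all genes tested. The median deviation of complement genes from each gene's own median over 6 arrays was 0.30 on that array, 0.03 and -0.01 on the other controls, and -0.07, -0.06 and 0.01 on high fat replicates 1 to 3. In coagulation the same median ran from -0.05 to 0.02 over the 6 arrays, and over all genes from -0.01 to 0.01. Within complement, the deviation on control replicate 1 was 0.44 for the inhibitors and 0.35 for the terminal components.

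**Figure D3:**
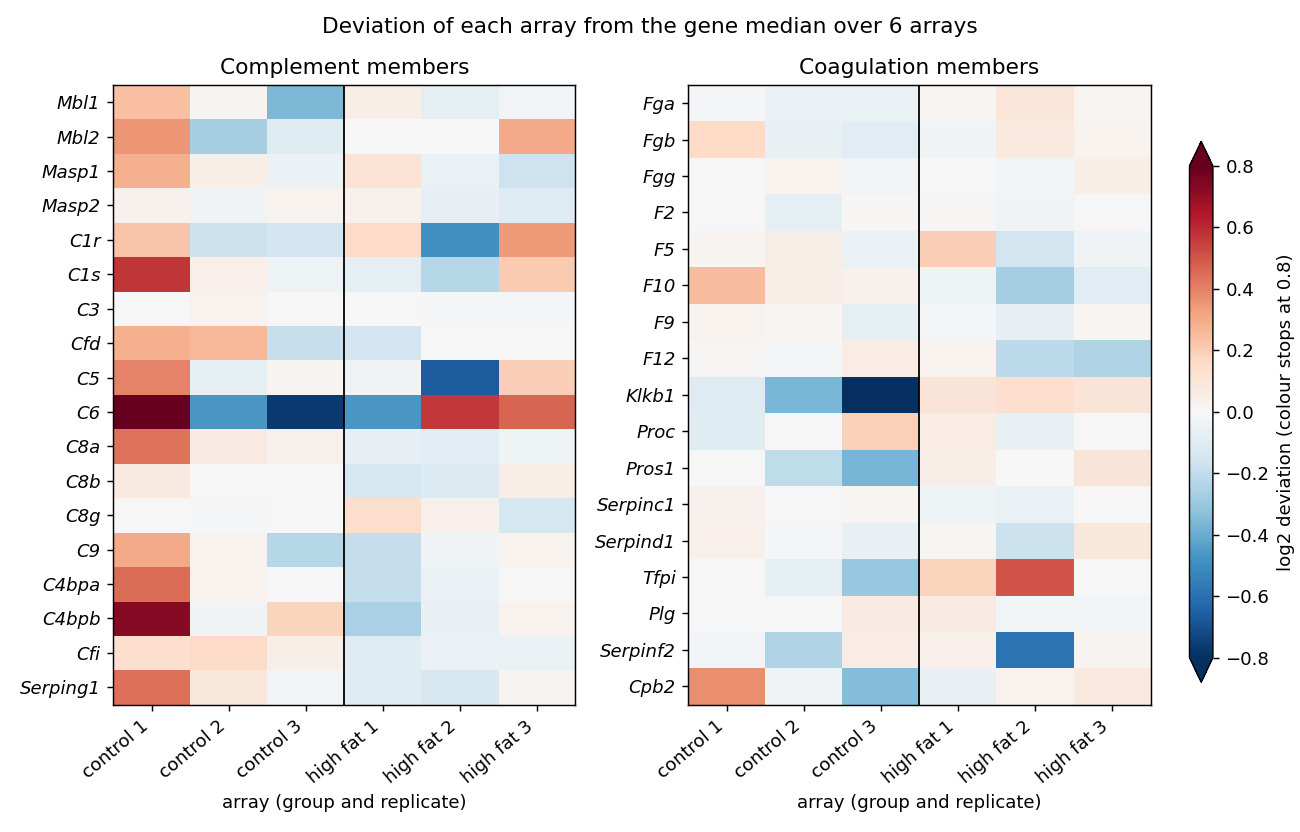
Deviation of each array (columns) from the gene's median over all 6 arrays, in log2 units, for 18 complement genes (left) and 17 coagulation genes (right). Red marks higher and blue lower, and the line parts the groups. The first column is red for most complement genes, with a median of 0.30, and near white for most coagulation genes.

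The lead of control replicate 1 over the next highest array was 0.63 for C6, 0.55 for C4bpb, 0.42 for C4bpa, 0.38 for C8a, 0.36 for C1s and 0.35 for Serping1. Among coagulation genes it led by 0.29 for Cpb2 and 0.21 for F10. Without this array the complement median was -0.04, with 6 genes higher and 12 lower, against -0.12 with it. The median of the 4 inhibitors was -0.13 without it, against -0.24 with it, and all 4 were lower in both settings. Without control replicate 3 the complement median was -0.20. Leaving out control replicate 2, control replicate 3 or high fat replicate 1 gave 2 genes higher and 16 lower each time. The counts were 5 higher and 13 lower without high fat replicate 2, and 4 and 14 without high fat replicate 3. Of all genes, 52.1% to 54.4% were lower with 1 array left out. Without high fat replicate 3, the array with other sex-linked transcripts, complement had 7 of 18 genes whose groups did not overlap with high fat lower and 1 higher, and its median was -0.15. Over all 10372 genes, 1697 (16.4%) were lower without overlap and 1349 higher when that array was left out. With all arrays the count of complement genes lower without overlap was 2. It was 5 without control replicate 3 or high fat replicate 1, and 3 without control replicate 2. Without control replicate 1 or high fat replicate 2 it was 2. Over all genes the share lower without overlap ran from 15.7% to 17.9% with 1 array left out.

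Some genes outside the set were also highest on that array. A2m, alpha-2-macroglobulin, a broad protease inhibitor that is a strong acute phase protein in the rat, read 14.75 in control replicate 1 against 12.43 to 13.35 on the others. Il1r1, the receptor of interleukin 1, read 13.38 against 11.53 to 12.32, and Lcn2, an acute phase lipocalin, 9.38 against 6.11 to 7.62. Of 15 acute phase genes, a list chosen after the values were seen, 10 were highest on control replicate 1 and 3 were lowest there, Hamp (6.41 against 7.69 to 13.10), Hp and Itih3. Over the 15, 4 were higher and 11 lower in high fat pups with a median change of -0.09, between -0.16 (without high fat replicate 2) and -0.03 (without control replicate 1) with 1 array left out, and Orm1 alone passed the looser call (-0.95), as did 3.37% of all genes in that direction. What set that pup apart was not tested.

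**Figure D4:**
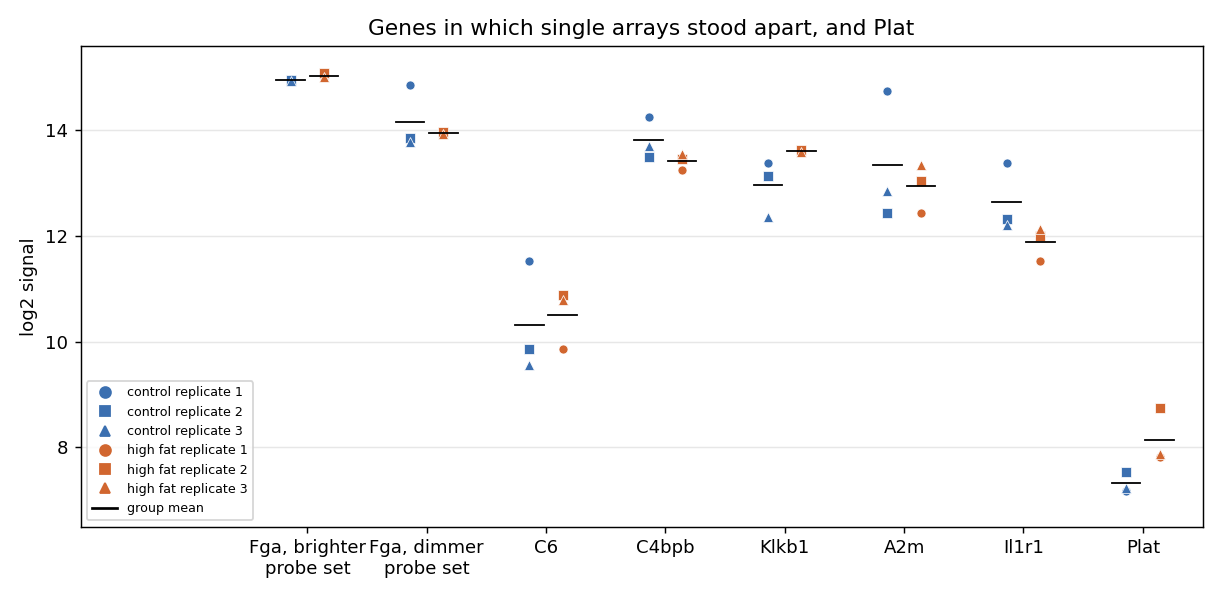
Normalized log2 signal (vertical axis) of genes in which single arrays stood apart, by group and replicate, with black lines for group means. Control replicate 1 (blue circles) is high for the dimmer Fga probe set (14.86), C6 (11.52), C4bpb (14.25), A2m (14.75) and Il1r1 (13.38), and control replicate 3 (blue triangle) is low for Klkb1 (12.37). Plat is lower in all controls than in high fat pups.

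A second probe set of Fga showed the same array. It read 14.86 in control replicate 1, 13.86 and 13.78 in the other controls, and 13.94, 13.98 and 13.94 in high fat pups, a difference of -0.22. On the brighter Fga probe set the same pup, at 14.98, lay among the others at 14.94 to 15.09. Of the 35 members 6 had several probe sets, with 44 probe sets over all members, and for Fga, Fgb, Masp1 and Tfpi these differed in sign. The second Tfpi probe set read 8.70, 8.48 and 7.86 in controls and 8.21, 8.39 and 7.77 in high fat pups, a difference of -0.22 where the brighter one gave 0.36. Masp1 gave 0.39 and -0.42 on its dimmer probe sets against -0.13 on the brightest. The other probe sets of Mbl2 (0.25) and Masp2 (-0.06 and -0.08) kept the sign of the brightest.

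The brightest members also depend on scaling. In the values as deposited, the mean of the 100 brightest probe sets was 14.87, 14.86 and 14.84 in controls and 14.71, 14.59 and 14.88 in high fat pups. With those values Serpinc1 differed by -0.17, C9 by -0.19, Plg by -0.11 and Cfi by -0.25. Klkb1 differed by 0.62 and lost its looser call, and C4bpb differed by -0.41. The complement median was -0.18 and the coagulation median -0.07 as deposited.

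Partners of these proteins that are not members were counted in the same way. Of 22 other complement genes 13 were tested, 6 higher and 7 lower. Their median change was -0.03, between -0.07 (without control replicate 3) and 0.09 (without high fat replicate 2) with 1 array left out. In none did the groups part, against 20.8% of all genes, or the looser call hold, against 6.71%. They include receptors, regulators such as Clu and Vtn, and C1q, which macrophages make. Of 22 other coagulation genes 16 were tested, 5 higher and 11 lower. Their median change was -0.17 and no adjusted p was under 0.05 in limma. That median was -0.03 without control replicate 1.

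Plat, tissue plasminogen activator, which turns plasminogen into plasmin, was the only one of these past the looser call. It read 7.18, 7.54 and 7.24 in controls and 7.81, 8.74 and 7.88 in high fat pups, all above the controls. The change of 0.82 was 1.77-fold (SE 0.27, limma adjusted p = 0.276). The looser call was lost without control replicate 1 (0.75, unadjusted p = 0.0550 in limma) or control replicate 3 (0.78, unadjusted p = 0.0530 in limma), and the change was 0.53 without high fat replicate 2.

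Another 3 had an unadjusted p under 0.05, as did 14.1% of all genes, with all high fat values below the controls. They were singled out after their values were seen. Ggcx, the carboxylase that readies the vitamin K dependent factors, read 11.47, 11.47 and 11.27 in controls and 10.93, 10.45 and 11.15 in high fat pups (change -0.56, SE 0.20, limma adjusted p = 0.299, and -0.36 without high fat replicate 2). Its clients F2, F9, F10, Proc and Pros1 are described above, with log2 changes from -0.24 to 0.25. F8, factor VIII, a product of endothelium, read 9.11, 8.89 and 9.15 in controls and 8.67, 8.69 and 8.50 in high fat pups (change -0.43, SE 0.14, limma adjusted p = 0.269). Mcfd2, a subunit of the cargo receptor that carries factors V and VIII out of the endoplasmic reticulum, read 12.99, 12.68 and 12.84 in controls and 12.34, 12.42 and 12.52 in high fat pups (change -0.41, SE 0.14, limma adjusted p = 0.285).

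Of 7 genes that pass the cytokine signal to the liver 4 were higher and 3 lower. Their median change was 0.08, and the looser call, which 6.71% of all genes passed, was not met by any. That median was -0.38 without control replicate 3, -0.13 without high fat replicate 2, 0.03 without control replicate 1, 0.13 without control replicate 2 and 0.22 without high fat replicate 1. Il6r, the receptor of interleukin 6, read 11.71, 11.90 and 11.81 in controls and 12.27, 12.02 and 12.06 in high fat pups, all higher (change 0.31, SE 0.13, limma adjusted p = 0.363). Stat3, the factor that this receptor activates, read 12.23, 11.60 and 12.18 in controls and 11.53, 11.32 and 11.68 in high fat pups (change -0.49, SE 0.21, limma adjusted p = 0.354). Il1r1, with its high value in control replicate 1, differed by -0.75 (SE 0.34, limma adjusted p = 0.382), and by -0.38 without that array.

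Cell markers moved beside these genes as follows. The 7 hepatocyte markers had a median change of 0.02 and a summed log2 signal of 17.39 to 17.42 in controls and 17.30 to 17.44 in high fat pups. All 8 sinusoidal endothelial markers, F8 among them, were lower in high fat pups, with a median of -0.67 and a summed signal of 14.28 to 14.52 in controls against 13.49 to 13.86. Of the 8, 5 passed the looser call (3.37% of all genes passed it lower), Stab1 (-0.61), Stab2 (-0.97), Fcgr2b (-0.99), Gpr182 (-0.73) and Kdr (-0.79), and 3 did when high fat replicate 1 was left out. None of the 8 passed the adjusted threshold, with limma adjusted p from 0.185 to 0.780. Of 9 Kupffer cell and macrophage markers 2 were higher and 7 lower (median -0.09), summed at 14.37 to 14.59 against 14.06 to 14.47. C1qa, C1qb and C1qc among them are also counted with the other complement genes above. In 3 of the 9, Cd163 (-0.52), Cd14 (-0.49) and Mrc1 (-0.34), every high fat value lay below the controls, as in 11.5% of all genes. In the others the groups overlapped. The median of the 9 was 0.08 without high fat replicate 2, -0.01 without control replicate 2, -0.24 without control replicate 3 and -0.30 without high fat replicate 3. Of 8 stellate cell and fibroblast markers 6 were higher and 2 lower (median 0.11, or 0.04 without control replicate 3 and 0.19 without control replicate 2), summed at 13.97 to 14.08 against 13.95 to 14.23. Dcn (-1.50) and Lrat (0.70) passed the looser call in opposite directions, and none of the 8 did without control replicate 2.

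The remaining lists were dim in part. Platelet markers summed to 10.03 to 10.25 in controls and 9.41 to 9.79 in high fat pups, with 3 of 5 below the brightness limit. Adipocyte markers summed to 12.05 to 13.31 and 12.94 to 13.55, with Adipoq, Plin1 and Lep below the limit. Nearly all of that sum was Car3 alone, at 11.89 to 13.24 in controls and 12.85 to 13.44 in high fat pups. Erythroid markers summed to 9.99 to 11.18 and 9.63 to 10.41, and all 4 tested were highest in control replicate 1, of which Slc4a1 (-0.96) passed the looser call. Cholangiocyte markers summed to 12.59 to 12.84 and 12.02 to 12.21, with Krt7 and Spp1 below the limit. Most of that sum was Cdh1, at 12.24 to 12.58 in controls and 11.40 to 11.76 in high fat pups. Cdh1 (-0.82) and Krt19 (0.72) passed the looser call in opposite directions, and Epcam differed by 0.08. Neutrophil markers summed to 9.09 to 9.88 and 8.87 to 10.24, and lymphocyte markers to 8.77 to 9.08 and 8.74 to 9.15, with 5 of 7 lymphocyte markers below the limit. The part of these cells in the values of the members was not tested. Without high fat replicate 1, the array with pancreatic transcripts, the complement median was -0.11 and the coagulation median -0.01.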

How the data were processed

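Liver RNA of 6 rat pups was measured on 6 arrays. Per the labels' protocols, RNA was extracted with TRIzol, its integrity was checked, and it was labelled with a 3' IVT kit. The deposited values are log2 signals, as found from the values: with the logarithm undone, each array has the same 2% trimmed mean, 500.2. How probes were summarized is not stated in the sources at hand. Values of 91 to 144 probe sets per array are 0, and no detection calls were used.

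Quartiles differed by up to 0.22 between arrays, so the 31099 probe sets were quantile-normalized. Controls aside, the platform annotation gave 20826 of 31042 probe sets a single gene, 436 several genes and 9780 no name. A RefSeq table (GRCr8) held 20758 of the 20826, and symbols follow it. The lowest 40% by mean, under 5.83, were left out, which left 10372 of 14217 genes. All 35 members with values passed. The number of arrays limits the precision.

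The test was 2-sided, by lmFit and eBayes of limma 3.58.1 (R 4.3.3), with Benjamini-Hochberg adjustment over all genes. It was tested on simulated data. Levels and changes are log2 values, and SE and intervals are limma's. Members and lists were chosen with earlier results of these data known, so no list has a p. Every member with a value is named, and of the other lists the genes past the looser call. Others were chosen after their values were seen. Python 3.11.15 with matplotlib 3.10.9 drew the figures.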

Additional observations from a re-analysis of the deposited data

How the results depend on the processing

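With 3 pups a group, no member passed the adjusted threshold in any of 14 alternatives (490 values), with a smallest adjusted p of 0.276 in limma. Across all genes, 4 passed, against 1 with no brightness filter, 0 with the replicate block, 0 with the RNA integrity covariate and 0 to 4 with 1 array left out. No sign was seen that replicate numbers pair the pups. Deviations of same-numbered arrays correlated at -0.14 to -0.13, and 0 of 6 arrays correlated best with its own number. With 3 pups a group such a check could miss a weak pairing. Klkb1 kept its looser call with the block.

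The complement median of -0.12 ranged from -0.20 to -0.04 with 1 array left out, and was -0.23 with the covariate and -0.18 as deposited. With high fat replicates 1 and 3 both left out, where the lone high fat sample is assumed to vary like the others, 1 complement gene passed the looser call and the coagulation median was -0.045. As deposited that median was -0.071. The count of coagulation genes past the looser call was 0 as deposited, without the filter and with the covariate, and 0 to 1 with 1 array left out.

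Of the 490 member values 52 turned direction, in 17 of 35 members, and the cause was not tested. As deposited these were F2 (-0.13), F5 (-0.026), Fga (-0.071), Fgb (-0.15) and Fgg (-0.15). With the mean of all probe sets they were Fga (-0.069) and Fgb (-0.045). With the covariate they were C6 (-0.38), Cpb2 (-0.17), Fgb (-0.050), Mbl1 (-0.12), Plg (0.018), Proc (0.065) and Serpinf2 (0.024). With both arrays left out they were C1r (-0.46), F2 (-0.0097), F5 (-0.16), Fgg (-0.023) and Mbl1 (-0.039). With array weights they were C8g (-0.0019), F5 (-0.0032) and Serpind1 (0.014). With 1 array left out the ranges were -0.85 to 0.31 for A2m (not a member), -0.14 to 0.28 for C1r, -0.18 to 0.80 for C6, -0.042 to 0.095 for C8g, -0.23 to 0.034 for C9, -0.16 to 0.20 for Cpb2, -0.013 to 0.032 for F2, -0.092 to 0.078 for F5, -0.043 to 0.010 for F9, -0.026 to 0.10 for Fgb, -0.012 to 0.021 for Fgg, -0.14 to 0.15 for Mbl1, -0.031 to 0.28 for Mbl2, -0.045 to 0.0074 for Plg, -0.089 to 0.053 for Proc, -0.064 to 0.066 for Serpind1 and -0.22 to 0.096 for Serpinf2.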
